A study of Mus musculus with 9 samples.

Results

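The genes of proteins that write active histone marks or remove the PRC2 mark were followed in alveolar macrophages with and without Suz12, the gene of a subunit that the Polycomb complex PRC2 needs. The set of 10 comprises the H3K27 demethylase genes Kdm6a and Kdm6b, the H3K4 methyltransferase genes Kmt2a, Kmt2b, Kmt2c and Kmt2d, and the genes of the shared COMPASS core, Ash2l, Wdr5, Rbbp5 and Dpy30. The genes were picked by name for their known role opposite PRC2, by matching Entrez gene numbers to mouse symbols, and they are 10 of the 27179 rows of the count table. All 10 passed the filter on low counts, which left 12840 genes for testing. Alveolar macrophages, the resident macrophages of the airspaces, had been purified by flow cytometry from lungs of mice aged 1 week on a C57BL/6 background. There were 5 libraries from Suz12 cKO mice, called knockout here, and 4 from wild type mice, which the series text calls biological replicates. All libraries were poly(A) RNA made with the TruSeq kit and read as single reads of 85 bases. The Cre driver, the deleted part of Suz12, the sex of the mice, the sort gate, and whether a library is from 1 mouse or a pool are absent from the sample labels used here.

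PRC2 places methyl groups on lysine 27 of histone H3, a mark of silenced genes. KDM6A (UTX) and KDM6B (JMJD3) take that mark off. The KMT2 enzymes methylate lysine 4 of the same histone at promoters and enhancers, and each needs the core of WDR5, RBBP5, ASH2L and DPY30 to be fully active. KMT2C and KMT2D form the complex that also holds KDM6A, so that 1 assembly carries a writer of the active mark and an eraser of the PRC2 mark. In macrophages Kdm6b is known as a gene that inflammatory stimuli switch on.

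The knockout libraries held 18.6 to 45.6 M counted reads (M, 1000000) and the wild type libraries 13.8 to 25.3 M, and every member had between 360 and 7208 reads in each library. The groups also differed in complexity, with 15364 to 16757 genes detected in knockout and 12396 to 13372 in wild type, and 0.875 to 1.2% of reads in rows with no gene name in knockout and 2.75 to 4.43% in wild type. Knockout 4, with 18.6 M reads, had 15480 genes detected, against 13168 in wild type 4, with 25.3 M. The part of this split in the results was not tested. Suz12, the targeted gene, averaged 16 ± 4.11 counts per 1000000 (CPM) in knockout and 66.6 ± 10.7 CPM in wild type (SD, n = 5 and 4). All 12 alveolar macrophage markers examined were detected, with summed levels of 16500 to 42700 CPM in knockout and 23400 to 61600 CPM in wild type; Marco, Mertk and Lpl were called higher in knockout and Car4, Krt79 and Cd68 lower. C1qa, C1qb, C1qc, Cx3cr1, Folr2 and Lyve1, markers of interstitial macrophages, another lung macrophage, summed to 3.29 to 17.2 CPM in knockout and 3.1 to 8.86 CPM in wild type. Of these 6 markers 5 were tested, with 0 called by edgeR, 1 at an unadjusted p under 0.05 and 1 called by DESeq2. Fibroblast markers summed to 4.17 to 9.53 CPM in knockout and 0 to 5.77 CPM in wild type. Of the 4 tested none was called by edgeR, with Col1a2 at an unadjusted p of 0.0298. Lum, too low to be tested, had 7 reads in knockout and 0 in wild type. Dcn, also not tested, averaged 0.0912 CPM in knockout and 0.0913 CPM in wild type. The part of these cells in the differences described here was not tested. In bulk RNA, fewer cells of a type and less RNA per cell cannot be told apart. Little Xist was found in 4 libraries. Knockout 1, 3 and 4 and wild type 4 had under 1 CPM of this RNA of the inactive X chromosome and carried Y-linked transcripts. The other 5 had 336 to 450 CPM of Xist and Y-linked genes at or near 0.

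Dpy30 and Kmt2d were lower in knockout macrophages, Kdm6b was higher, and the other 7 members did not pass the test. In edgeR's quasi-likelihood test across all genes, with Benjamini-Hochberg adjustment at 0.05, 1 of the 10 members was called higher and 2 lower. Of all 12840 tested genes, 8.97% were called higher and 11% lower, or 19.9% in either direction, against 3 of the 10 members. The median log2 fold change was -0.01 over the 10 members and 0.04 over all tested genes. The 2 groups of libraries did not overlap for Dpy30 and Kmt2d, both lower in knockout, against 9.87% of all tested genes that were lower without overlap.

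**Figure D1:**
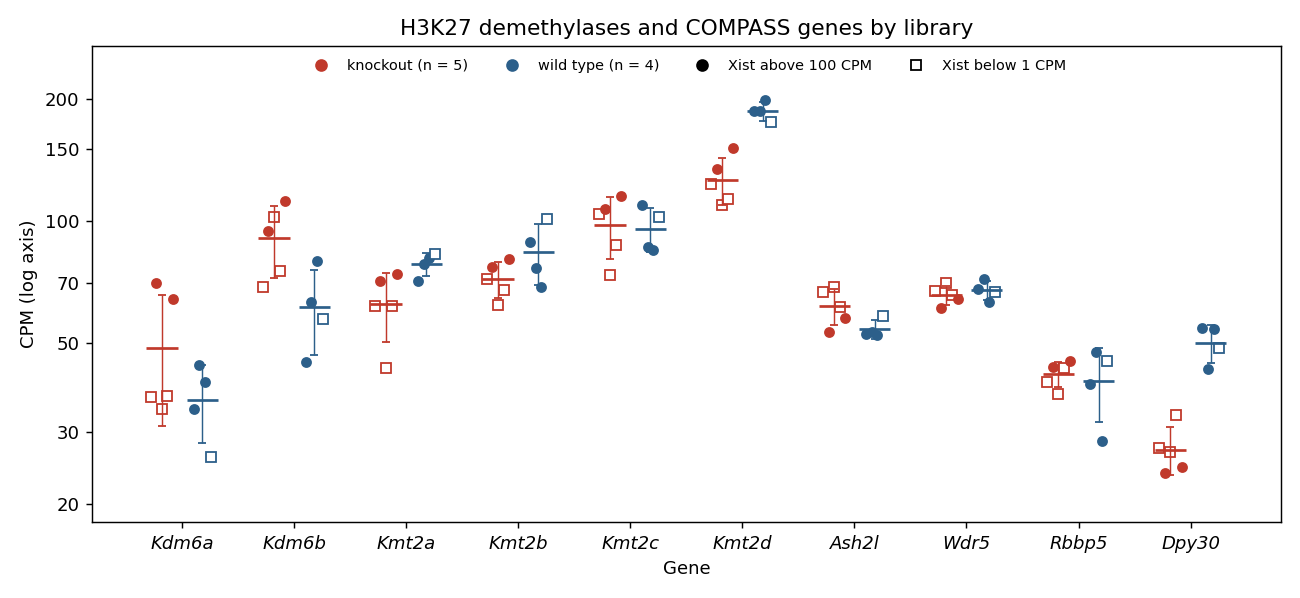
Level of each of the 10 genes in every library, in CPM on a log axis. Red marks stand for 5 knockout libraries and blue marks for 4 wild type libraries, circles for libraries with Xist above 100 CPM and squares for those below 1 CPM, and lines and bars give mean and SD. Only Kmt2d and Dpy30 have groups that do not overlap, both with the knockout libraries below.

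Windows around an annotated transcript start of Dpy30, Kmt2d and Kdm6a are shown because the first 2 were lower in knockout and Kdm6a was called higher once the Xist level entered the model. Each runs from 250 bases before a transcript start to 50 after it, from RefSeq on GRCm38.p6, 5′ to 3′ on the gene's strand, with CpG dinucleotides in capitals. The Dpy30 window is chr17:74316162-74316461 on the minus strand, the Kmt2d window chr15:98871156-98871455 on the minus strand, and the Kdm6a window chrX:18162325-18162624 on the plus strand. All 3 lie inside the gene spans given here, which reach out to farther starts.
Dpy30: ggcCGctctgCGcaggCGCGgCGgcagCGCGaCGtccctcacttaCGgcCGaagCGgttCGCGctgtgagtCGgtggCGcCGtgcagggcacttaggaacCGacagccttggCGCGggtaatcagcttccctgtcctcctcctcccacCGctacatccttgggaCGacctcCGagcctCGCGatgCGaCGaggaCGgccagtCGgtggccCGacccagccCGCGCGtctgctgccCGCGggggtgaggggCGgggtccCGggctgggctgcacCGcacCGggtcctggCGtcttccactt
Kmt2d: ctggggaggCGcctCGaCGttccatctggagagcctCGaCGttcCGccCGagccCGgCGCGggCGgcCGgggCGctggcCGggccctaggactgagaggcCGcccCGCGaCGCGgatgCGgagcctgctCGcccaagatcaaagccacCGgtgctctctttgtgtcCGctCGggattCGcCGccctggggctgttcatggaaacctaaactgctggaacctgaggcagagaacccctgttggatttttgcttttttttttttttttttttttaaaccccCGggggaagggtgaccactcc
Kdm6a: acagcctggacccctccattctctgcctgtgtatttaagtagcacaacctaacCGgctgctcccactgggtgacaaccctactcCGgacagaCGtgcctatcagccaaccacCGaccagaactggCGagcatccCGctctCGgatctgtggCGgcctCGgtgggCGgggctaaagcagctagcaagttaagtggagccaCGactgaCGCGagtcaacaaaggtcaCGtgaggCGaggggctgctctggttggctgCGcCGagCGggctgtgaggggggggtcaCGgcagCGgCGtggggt
These windows hold 39, 27 and 21 CpG dinucleotides in the order shown, against a median of 7 over all 32851 windows of this size. Their GC contents are 72.0%, 62.7% and 63.0%, against a median of 52.7%. Windows were found for 7 of the 10 members, 10 windows in all; Kdm6b, Kmt2b and Ash2l had none in the table. Of the 4 Dpy30 windows, with 39, 34, 30 and 1 CpG, the one with the most CpG is shown. The Dpy30 window with 1 CpG, at a farther start, chr17:74323895-74324194, has a GC content of 40.7%. Of 5 motifs searched on both strands, the E-box CACGTG, in 7.15% of all windows, was in the Kdm6a window, and CCGGAA, a core read by ETS factors and found in 14.9%, was in that of Kmt2a. CCAAT, found in 37.4%, was in the farther Dpy30 window. TATAAA, in 13.6% of all windows, and the AP-1 motif TGANTCA, in 7.81%, were in none of the 10.

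The H3K27 demethylase gene Kdm6b (chromosome 11, 69398508 to 69420367, mm10) had 68.4, 94.4, 102, 75 and 112 CPM in knockout libraries 1 to 5, against 44.8, 63, 79.3 and 57.1 CPM in wild type libraries 1 to 4. Knockout 5 was the highest library and wild type 1 the lowest, and wild type 3 lay above knockout 1 and 4, so the groups overlapped. Means were 90.3 ± 18.2 CPM in knockout and 61 ± 14.3 CPM in wild type (SD), a log2 fold change of 0.57 with a standard error of 0.17 and an adjusted p of 0.0292 in edgeR's quasi-likelihood test. This call was not firm. It was lost when any of knockout 2, knockout 5, wild type 1, wild type 2 or wild type 4 was left out, with edgeR adjusted p-values of 0.0634, 0.077, 0.0876, 0.0569 and 0.0807. It was also lost, at a log2 fold change of 0.39 and an adjusted p of 0.155, when a trend of fold change with gene length was taken out by an offset. In the 5 libraries with Xist above 100 CPM the log2 fold change was 0.71 with an adjusted p of 0.108.

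Kdm6b is itself an early response gene of stimulated macrophages, and other such genes moved in the same libraries. Against 8.97% higher and 11% lower of all tested genes, 10 of 25 immediate early and early response genes were called higher and 1, Dusp1, lower. Among them Atf3, a stress-induced transcription factor gene, had a log2 fold change of 1.49 (edgeR adjusted p = 0.000129), and Fosl2, which encodes an AP-1 subunit, one of 1.07 (adjusted p = 0.000154). Egr3, an early growth response factor gene, had no read in the 4 wild type libraries and 651 in knockout. With the wild type group set to 3 reads, Egr3 was at least 95.5-fold higher in knockout, scaled as for CPM. The summed level of the 25 genes was 8532, 10720, 8617, 8766 and 9552 CPM in knockout libraries 1 to 5, against 4571, 7215, 10010 and 7721 CPM in wild type libraries 1 to 4. Wild type 1 was lowest and wild type 3 highest among wild type libraries both in this sum and in Kdm6b. Among knockout libraries knockout 1 was lowest in both, but the sum was highest in knockout 2 and Kdm6b in knockout 5, and knockout 3 was high in Kdm6b and low in the sum. The part of this response in the Kdm6b difference was not tested.

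Across the 9 libraries the genes whose log2 CPM was most like that of Kdm6b were Snx30, a sorting nexin gene, with a Pearson correlation of 0.977, Mmp19, a matrix metalloproteinase gene, with 0.967, and Usp12, a ubiquitin hydrolase gene, with 0.96. They share the libraries, the depth and the group difference. Mmp19 averaged 133 ± 18.7 CPM in knockout and 99.9 ± 8.69 CPM in wild type, with an edgeR adjusted p of 0.0155, or 0.0528 without wild type 1.

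Kdm6a (chromosome X, 18160862 to 18279936) gave no call over all 9 libraries, but was higher in knockout among libraries of like Xist level. It had 36.6, 70, 34.3, 36.9 and 64.2 CPM in knockout libraries 1 to 5, against 34.2, 44.1, 40 and 26.1 CPM in wild type libraries 1 to 4. Knockout 2 and 5 stood above every other library, and the other 3 knockout libraries lay within the wild type range. Over all libraries the means were 48.4 ± 17.2 CPM in knockout and 36.1 ± 7.81 CPM in wild type, a log2 fold change of 0.43 with a standard error of 0.24 and an edgeR adjusted p of 0.243. Without knockout 2 the log2 fold change was 0.25, and with the length offset 0.27.

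Kdm6a is X-linked and is known to escape X inactivation in mouse, so its values were also read within libraries of like Xist level. Among libraries with Xist above 100 CPM, the 2 knockout libraries averaged 67.1 ± 4.1 CPM and the 3 wild type libraries 39.4 ± 4.97 CPM. Among the 4 libraries with Xist below 1 CPM, the 3 knockout libraries averaged 35.9 ± 1.42 CPM, against 26.1 CPM in the single wild type library. Knockout libraries were thus higher than every wild type library within each of the 2 sets. The share of all tested genes with this pattern was not counted, and sets this small can show it by chance. With the Xist level as a covariate in edgeR's model, the log2 fold change of Kdm6a was 0.65 with a standard error of 0.12 and an adjusted p of 0.00218, where 8.02% of all tested genes were called higher, 10.7% lower and 18.7% either way, and of the members 2 higher and 2 lower. In the 5 libraries with Xist above 100 CPM alone it was 0.74 with a standard error of 0.15 and an adjusted p of 0.0291, where 1.52% of 13107 tested genes were called higher, 4.93% lower and 6.45% either way. Xist covariate and length offset together gave 0.49 with an adjusted p of 0.0112. A genotype difference that itself depended on the Xist level was not detected for Kdm6a, with an interaction of 0.30 on the log2 scale, an unadjusted p of 0.216 and an adjusted p of 0.9999 in edgeR; only 1 wild type library had little Xist.

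**Figure D2:**
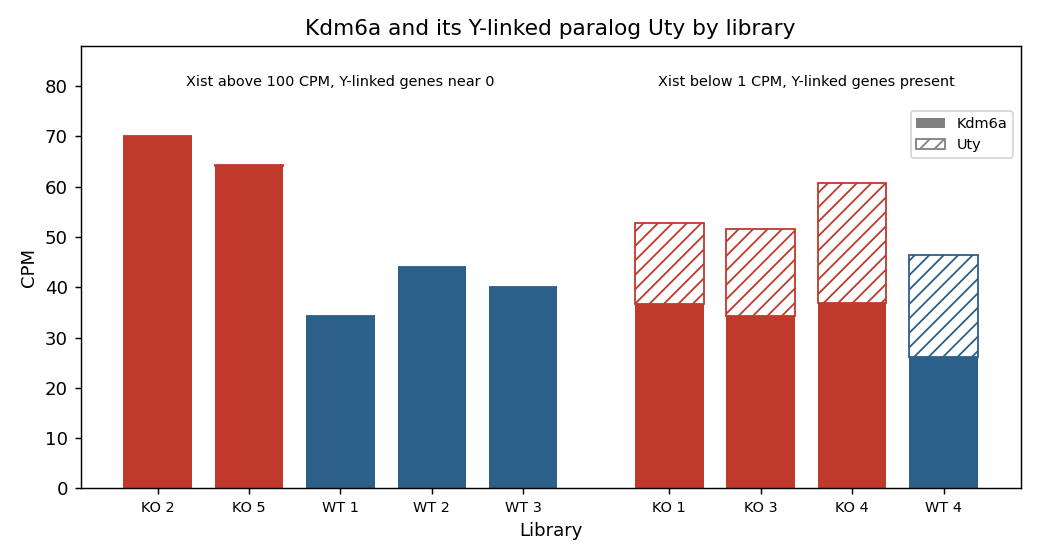
Level of Kdm6a (solid bars) and of Uty (hatched, stacked on top) in CPM in each library, red for knockout (KO) and blue for wild type (WT), with the 5 libraries of high Xist on the left and the 4 of low Xist on the right. Within both sets every knockout bar for Kdm6a is higher than every wild type bar, and Uty is seen only on the right.

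Uty, the Y-linked paralog of Kdm6a with little demethylase activity, was found only in the libraries with little Xist. It had 16.2, 17.3 and 23.8 CPM in knockout 1, 3 and 4, against 20.4 CPM in wild type 4, and at most 3 reads in any other library. Adding Uty to Kdm6a gave 52.8, 70, 51.6, 60.7 and 64.3 CPM in knockout libraries 1 to 5, against 34.2, 44.1, 40.1 and 46.4 CPM in wild type libraries 1 to 4. All 5 sums in knockout lay above all 4 in wild type, as was so for 10.9% of all tested genes taken singly. The sum was formed after the values were seen and is given as a description, with no test. The 2 genes are near-identical in parts, and reads shared between them could be counted for either or left out.

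The other X-linked genes known to escape X inactivation that were examined numbered 3, and none was called over all 9 libraries by edgeR, DESeq2 or limma voom, with 1 at an unadjusted p under 0.05 in edgeR. Kdm5c, an H3K4 demethylase gene, averaged 115 ± 24 CPM in knockout and 119 ± 24 CPM in wild type, with a log2 fold change of -0.04. Eif2s3x, which encodes a translation initiation factor subunit, had -0.28 (edgeR adjusted p = 0.295), and Ddx3x, an RNA helicase gene, 0.26 (adjusted p = 0.0773). With the Xist covariate, Ddx3x was called higher (log2 fold change 0.35, edgeR adjusted p = 0.0081). In that fit Kdm5c (0.09, adjusted p = 0.636) and Eif2s3x (-0.09, adjusted p = 0.574) were not called. The genes whose log2 CPM was most like that of Kdm6a over the 9 libraries were H60b, Gvin1 and Slc20a1, with Pearson correlations of 0.921, 0.92 and 0.905; none of the 3 was called by these tools, nor had an unadjusted p under 0.05 in edgeR. With the Xist covariate Gvin1 (log2 fold change 0.32, edgeR adjusted p = 0.0309) and Slc20a1 (0.44, adjusted p = 0.0484) were called higher, and H60b was not called. All 3 were picked for their likeness to Kdm6a in these same libraries, so their calls are no separate evidence.

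Of the 4 catalytic COMPASS genes, Kmt2d fell and the other 3 were not called. Kmt2d (chromosome 15, 98831669 to 98874077), which encodes the main H3K4 monomethyltransferase of enhancers along with KMT2C, had 123, 134, 109, 113 and 151 CPM in knockout libraries 1 to 5, against 186, 186, 199 and 175 CPM in wild type libraries 1 to 4. The highest knockout library, knockout 5, was below the lowest wild type library, wild type 4. This was a log2 fold change of -0.56 with a standard error of 0.10 and an adjusted p of 0.00137 in edgeR's quasi-likelihood test. The call held in all 21 other settings tried, with log2 fold changes of -0.64 to -0.32. The smallest difference came with the length offset, -0.32 with an adjusted p of 0.0110, a fit in which Kmt2d is among 21 tested genes of at least 16000 bases.

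Kmt2c (chromosome 5, 25271795 to 25498855), its paralog, had 104, 107, 73.5, 86.9 and 115 CPM in knockout libraries 1 to 5, against 109, 86.2, 84.6 and 102 CPM in wild type libraries 1 to 4. The groups lay on top of each other, with means of 97.1 ± 16.6 CPM in knockout and 95.7 ± 12.2 CPM in wild type and a log2 fold change of 0.02 (SE 0.13, edgeR adjusted p = 0.931). The balance between the 2 paralogs was compared within libraries. The log2 ratio of Kmt2d to Kmt2c, per base of gene length, was 0.0121, 0.0951, 0.335, 0.141 and 0.156 in knockout libraries 1 to 5, against 0.528, 0.871, 0.995 and 0.533 in wild type libraries 1 to 4. Every knockout ratio was below every wild type ratio. The mean difference was -0.58, with a p of 0.00794 in an exact two-sided permutation test, the smallest that groups of 5 and 4 allow, and 0.0238 after adjustment over the 3 paralog pairs tested. With the length offset the difference was -0.45 and its adjusted p 0.0714, so the call was lost.

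The other 2 pairs did not pass the test. The log2 ratio of Kdm6b to Kdm6a averaged 0.61 ± 0.41 in knockout and 0.42 ± 0.36 in wild type (exact permutation p = 0.532). The ratio of Kmt2b to Kmt2a averaged 1.18 ± 0.17 in knockout and 1.04 ± 0.27 in wild type (exact permutation p = 0.397). Both had an adjusted p of 0.532.

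**Figure D3:**
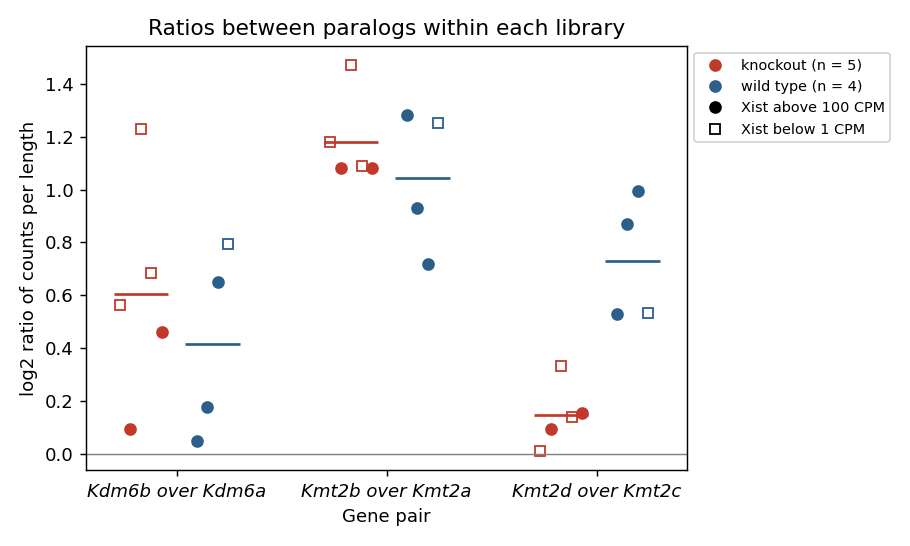
Log2 ratio of counts per base of gene length for 3 pairs of paralogs in each library, with knockout (red) left of wild type (blue) and lines at the group means; circles mark libraries with Xist above 100 CPM and squares those below 1 CPM. Kmt2d over Kmt2c lies between 0.0121 and 0.335 in knockout and between 0.528 and 0.995 in wild type, while the groups overlap for the other pairs.

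Kmt2a (chromosome 9, 44803355 to 44881352), the MLL1 gene required for Hox expression in blood cells, had 61.4, 70.9, 43.3, 61.7 and 73.9 CPM in knockout libraries 1 to 5, against 71.1, 78.1, 80.9 and 82.5 CPM in wild type libraries 1 to 4. Only knockout 5 reached the wild type range, and knockout 3 was the lowest. The log2 fold change was -0.33 (SE 0.13) with an edgeR adjusted p of 0.0998. Without knockout 3 the log2 fold change was -0.22, more than 1.5 times smaller. Kmt2b (chromosome 7, 30568855 to 30589056), the MLL2 gene that acts at CpG island promoters, had 71.6, 77, 61.8, 67.5 and 80.6 CPM in knockout libraries 1 to 5, against 88.7, 76.5, 68.5 and 101 CPM in wild type libraries 1 to 4. The groups overlapped, and the log2 fold change was -0.22 (SE 0.12, edgeR adjusted p = 0.209). Without wild type 4 the log2 fold change of Kmt2b was -0.12, and with library totals alone -0.11. In the 5 libraries with Xist above 100 CPM it was -0.0068 for Kmt2b and -0.11 for Kmt2a. With the length offset that of Kmt2b was -0.41 and was called, with an adjusted p of 0.0181. All 4 Kmt2 genes were lowest in knockout 3 and highest in knockout 5 among the knockout libraries.

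Among the core subunits, Dpy30 fell furthest. Dpy30 (chromosome 17, 74299474 to 74323944) encodes the dimerising subunit that docks on ASH2L and stimulates methylation. It had 27.5, 23.8, 26.9, 33.2 and 24.6 CPM in knockout libraries 1 to 5, against 54.3, 43, 54.1 and 48.5 CPM in wild type libraries 1 to 4. Every knockout library was below every wild type library. Means were 27.2 ± 3.69 CPM in knockout and 50 ± 5.34 CPM in wild type, a log2 fold change of -0.88 with a standard error of 0.12 and an edgeR adjusted p of 0.000295. The call held in all 21 other settings, with log2 fold changes of -1.08 to -0.68.

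Dpy30 is a short gene, and fold changes in these libraries followed gene length. Among 1285 tested genes of 970.9 to 1451 bases, the tenth that holds Dpy30 with its 1108 bases, 38 were called higher and 300 lower, with a median log2 fold change of -0.19. With the length offset Dpy30 was at -0.68 (adjusted p = 0.000932). In that fit no member was called higher and 3 were called lower, Dpy30, Kmt2d and Kmt2b, against 6.74% higher, 9.35% lower and 16.1% in either direction of all tested genes. In the tenth of longest genes, which holds Kdm6b and the 4 Kmt2 genes, 197 were called higher and 33 lower, with a median of 0.14. The curve fitted at the length of Kmt2d itself, where few genes are that long, ran the other way and differed by -0.25 between knockout and wild type, the direction of its fall. At the length of Dpy30 it differed by -0.20.

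The other 3 core subunits did not pass the test. Ash2l (chromosome 8, 25816000 to 25847694), whose product binds RBBP5 and DPY30, had 66.5, 53.2, 68.5, 61.2 and 57.6 CPM in knockout libraries 1 to 5, against 52.4, 53.1, 52.2 and 58.1 CPM in wild type libraries 1 to 4. Most knockout libraries were higher, with an overlap at knockout 2 and 5, and the log2 fold change was 0.19 (SE 0.10, edgeR adjusted p = 0.212). Wdr5 (chromosome 2, 27515147 to 27536535), which encodes the scaffold that holds the KMT2 enzyme, averaged 65.5 ± 3.55 CPM in knockout and 67.2 ± 3.61 CPM in wild type, and its log2 fold change was -0.04 (SE 0.08, edgeR adjusted p = 0.807). Rbbp5 (chromosome 1, 132477348 to 132505665), whose product contacts the enzyme and the nucleosome, averaged 41.8 ± 3.01 CPM in knockout and 40.1 ± 8.34 CPM in wild type, and its log2 fold change was 0.06 (SE 0.14, edgeR adjusted p = 0.821). Wild type 3, at 28.6 CPM, was the lowest library for Rbbp5.

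**Figure D4:**
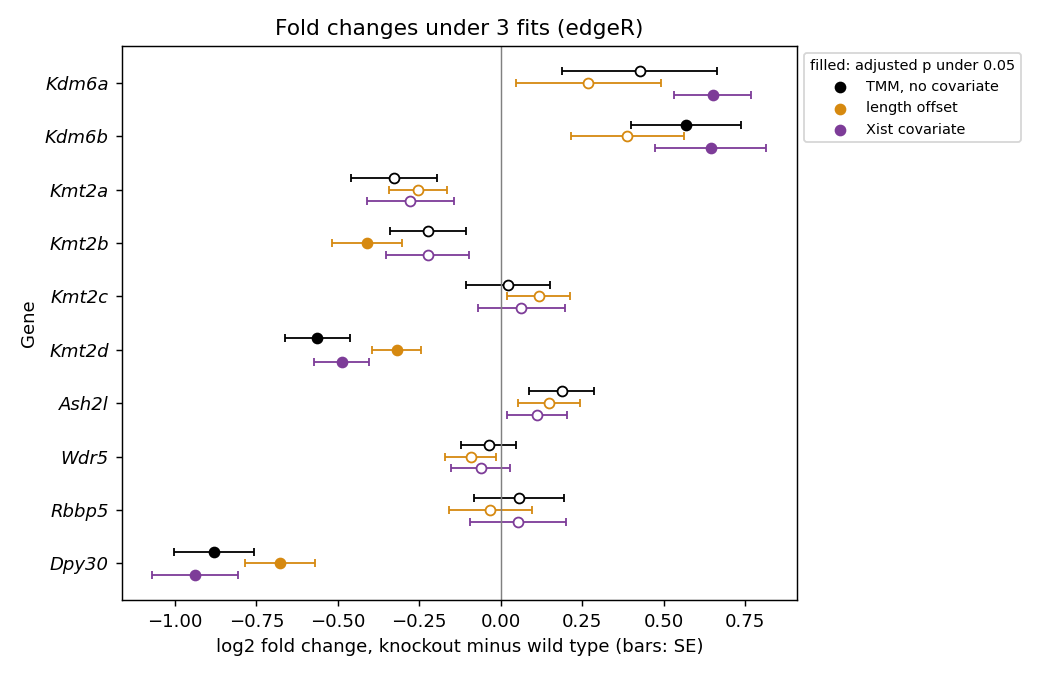
Log2 fold change, knockout minus wild type, of the 10 genes in 3 edgeR fits, with bars for 1 standard error and filled points for an adjusted p under 0.05. Kmt2d and Dpy30 are called lower in all 3 fits, Kdm6a is called only with the Xist covariate, and Kdm6b loses its call with the length offset.

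Compared per length, in CPM per kilobase, the core subunits averaged above the enzymes in wild type. Dpy30 was the most abundant member there at 45.1 ± 4.82, followed by Wdr5 at 23.2, Ash2l at 21.4 and Rbbp5 at 11, while the enzymes and demethylases ranged from 9.89 for Kmt2b to 4.76 for Kmt2a. In knockout Dpy30 averaged 24.5, Ash2l 24.4 and Wdr5 22.6, and their ranges overlapped; the next genes were Kdm6b at 13.6 and Rbbp5 at 11.5. The median of all tested genes was 9.09 in knockout and 8.87 in wild type. In wild type the ranges of neighbours in this order were apart between Dpy30 and Wdr5, between Ash2l and Rbbp5, and between Kmt2c and Kmt2a; in knockout they were apart only between Wdr5 and Kdm6b. The per-length level of Dpy30 relative to that of Ash2l was 1.01 ± 0.13 in knockout and 2.11 ± 0.28 in wild type. Relative to Wdr5 it was 1.09 ± 0.14 in knockout and 1.96 ± 0.29 in wild type. Relative to Rbbp5 it was 2.15 ± 0.33 in knockout and 4.3 ± 1.41 in wild type. The groups did not overlap in any of these ratios. The Dpy30 values themselves did not overlap, so the ratios are a description and no second result.

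Of 13 tested genes of other H3K4 methyltransferase complex subunits, 1 was called higher and 1 lower, against 8.97% and 11% of all tested genes. The median log2 fold change of the 13 was -0.06. With the length offset 1 was called higher and 3 lower, with a median of -0.14. Cxxc1, whose product brings SET1 complexes to unmethylated CpG, averaged 48.3 ± 3.51 CPM in knockout and 34.2 ± 6.93 CPM in wild type, a log2 fold change of 0.50 (edgeR adjusted p = 0.018). Pagr1a, a subunit of the KMT2C and KMT2D complex, averaged 14.6 ± 1.97 CPM in knockout and 20.6 ± 2.66 CPM in wild type, a log2 fold change of -0.50 (adjusted p = 0.0286). The call of Pagr1a was lost without knockout 2, 4 or 5 or wild type 1 or 4, with edgeR adjusted p-values of 0.0657 to 0.0841, and with the length offset, at 0.0699. Of 6 other methyltransferase genes of active chromatin, none was called by edgeR, DESeq2 or limma voom without an offset. In edgeR 1 had an unadjusted p under 0.05, and with the length offset 1 was called lower. Nsd1, an H3K36 methyltransferase gene, had a log2 fold change of 0.09 without the offset (edgeR adjusted p = 0.542).

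Of 6 tested genes of H3K4 demethylases, which remove what the KMT2 enzymes write, 3 were called higher and none lower. Of all tested genes 8.97% were called higher and 11% lower. The median log2 fold change of the 6 was 0.45, the Y-linked Kdm5d included. With the length offset it was 0.36, and 3 were called higher. Kdm5b had 13.2, 19.6, 19.1, 15.2 and 19.2 CPM in knockout libraries 1 to 5, against 4.15, 2.97, 4.85 and 2.95 CPM in wild type libraries 1 to 4. All knockout libraries were above all wild type libraries, and the log2 fold change was 2.22 (SE 0.22, edgeR adjusted p = 4.11e-05). Kdm5a averaged 96.9 ± 5.43 CPM in knockout and 70.1 ± 7.21 CPM in wild type (adjusted p = 0.00264), and Kdm1a, the LSD1 gene, 54.5 ± 2.74 CPM in knockout and 40.5 ± 5.13 CPM in wild type (adjusted p = 0.0107).

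Among 17 tested of 18 other JmjC oxygenase genes, 5 were called higher and none lower, against 8.97% and 11% of all tested genes. The median log2 fold change of the 17 was 0.25, the Y-linked Uty included. With the length offset it was 0.13, and 4 were called higher. The 5 included Kdm4c, an H3K9 demethylase gene, at 0.63 (edgeR adjusted p = 0.00168), and Jmjd6 at 0.66 (0.00366). The others were Kdm7a, a demethylase gene for H3K9 and H3K27, at 0.60 (0.006), Kdm3a and Jmjd1c. Of 5 genes for p300, CBP and BET proteins, readers and writers of acetylation, Brd2 alone was called. Of all tested genes 19.9% were called in either direction. Brd2 averaged 361 ± 36.6 CPM in knockout and 238 ± 31.8 CPM in wild type (log2 fold change 0.60, edgeR adjusted p = 0.00117). Of 22 SWI/SNF remodelling subunits, 2 were called higher, Pbrm1 and Smarcd3, against 8.97% of all tested genes. Pbrm1 had a log2 fold change of 0.29 (edgeR adjusted p = 0.0236). Smarcd3 had 106 reads in knockout and 1 in wild type. Its ratio, scaled as for CPM, was 46.7, with a 95% counting interval of 8.2 to 1860. That interval pools the reads of each group and leaves out the spread between libraries. The call of Pbrm1 was lost without knockout 1, 2 or 5 or wild type 1 or 4, with edgeR adjusted p-values of 0.0509 to 0.0698, and with the length offset, at a log2 fold change of 0.11. Of 6 PRC2 core genes, the targeted gene Suz12 and Rbbp4 were called lower and none higher, against 11% and 8.97% of all tested genes.

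**Figure D5:**
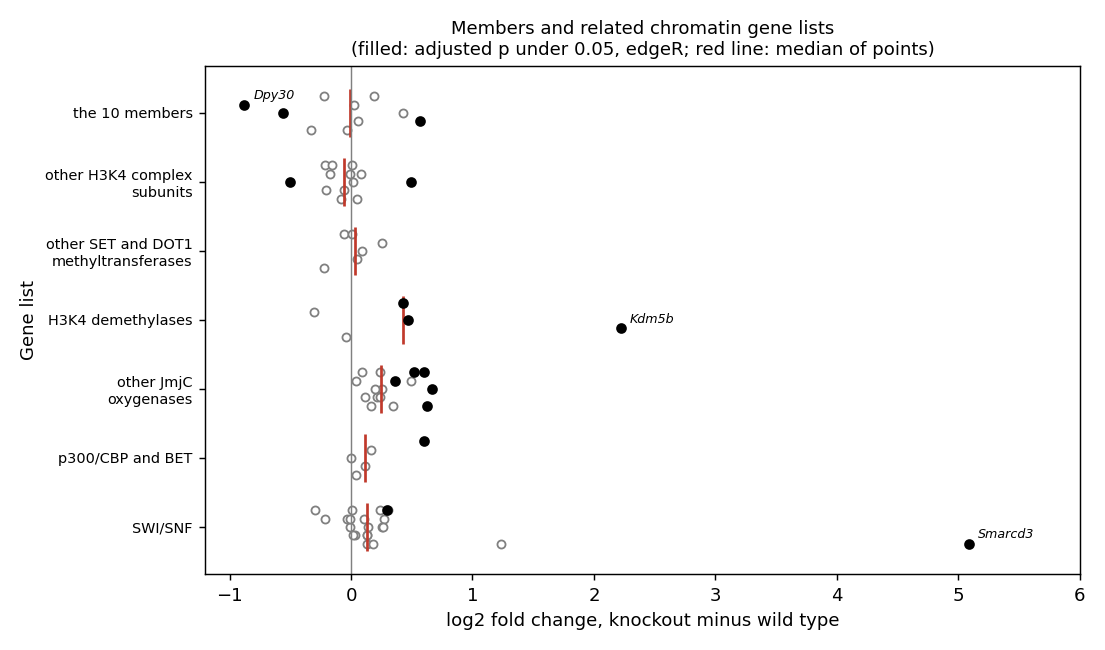
Log2 fold change, knockout minus wild type, of the 10 members and 6 related gene lists, with each tested gene as a point, filled where the adjusted p was under 0.05, and a red line at the median of the points. The Y-linked Kdm5d and Uty are not drawn, and the value of Smarcd3 is a fitted one for a gene with 1 read in wild type. Filled points lie on both sides of 0 among the members and on the right in the lists of demethylases.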

How the data were processed

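RNA libraries of 5 knockout and 4 wild type samples were compared. The deposited values are whole-number counts of reads per Entrez gene with a gene length column; the submitters' processing notes name featureCounts and mm10, and no aligner or strand setting is named in the labels. The joint table equalled the 9 single-library tables, and no within-group pair of libraries agreed within sampling noise. The series text calls the libraries biological replicates but does not name the animals; p-values measure the spread between these samples. Names came from RefSeq GRCm38.p6, which matched 25275 of 27179 rows.

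Genes were filtered with filterByExpr, scaled by TMM and tested with edgeR 4.0.16 (robust quasi-likelihood fit, no covariate, R 4.3.3), with Benjamini-Hochberg adjustment over 12840 genes and a threshold of 0.05. CPM are counts per 1000000 of the TMM-scaled total, and CPM values for a member are per library. Paralog ratios used counts plus 0.5 per base of length. The offset for gene length was a loess curve (span 0.5) of log2 CPM deviations on log2 length in each library, centred on 0. Alternatives were DESeq2 1.42.0, limma 3.58.1 voom, other scalings and filters, the Xist covariate, a replicate block and leaving out each library; the split by Xist, Xist covariate with length offset, and the offset without centring were added after seeing the data.

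The members and gene lists were chosen with earlier results of these data known. Besides the members, up to 3 called genes of each list with the smallest adjusted p are named, or the most abundant tested one, the X-linked and Y-linked lists in full, and the 3 genes most correlated with Kdm6a and with Kdm6b; Dusp1, Kdm3a, Jmjd1c, Ddx3x's call and single libraries were named after their values were seen. RefSeq records for predicted genes or pseudogenes overlap Kdm6b, Kmt2a, Kmt2b and Kmt2c, and none of these has a row in the count table. Of the listed marker genes, 1 is not reported here. Scripts were tested on simulated data.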

Additional observations from a re-analysis of the deposited data

Results flagged for a closer look

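Within their group, 2 values stood apart among 26 groups of libraries examined; chance gives about 1 in 20. Ash2l had 58.1 CPM in wild type 4, against 52.2 to 53.1 CPM in the other 3 wild type libraries. The log2 ratio of Kmt2b to Kmt2a was 1.47 in knockout 3, against 1.08 to 1.18 in the other 4 knockout libraries.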

How the results depend on the processing

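The calls of Dpy30 and Kmt2d held in all 21 other settings tried, and that of Kdm6b held in 12. Kdm6a was called in 3 of the 21, each of them using the Xist level, with log2 fold changes of 0.0555 to 0.744 over the 21. Leaving out 1 library at a time gave 772 to 1434 genes higher and 1074 to 1521 lower, 0 to 1 members higher and 2 lower in each run, and log2 ratio differences of 0.03 to 0.32 for Kdm6b over Kdm6a, 0.03 to 0.22 for Kmt2b over Kmt2a and -0.65 to -0.50 for Kmt2d over Kmt2c. Against 1152 genes higher and 1409 lower, library totals alone gave 1966 genes and 2 members higher (Ash2l added), put the median of all genes at 0.15, with 66% of all calls higher, against 45%. Libraries with Xist above 100 CPM gave 199 genes higher and 646 lower, Xist covariate with length offset 723 higher, and the Xist covariate alone 2 members higher. The length offset left 0 members higher; without centring it gave 468 genes higher and 3131 lower, 0 members higher and 5 lower, with the median of all genes at -0.20. The replicate block over 4 shared numbers gave 741 genes higher. Its Kmt2d over Kmt2c difference was -0.59 (exact sign-flip p = 0.125, the smallest 4 pairs allow). With the length offset the Kmt2d over Kmt2c difference was -0.45 (exact permutation test, adjusted p = 0.0714). With 1 library left out its adjusted p-values were 0.0537 to 0.0858, from the smallest p that 8 libraries allow. Same-numbered libraries correlated at -0.06 to 0.12, and 1 of 4 wild type libraries correlated best with its own number. The labels do not say what the numbers mean, and these correlations cannot show whether they pair the samples.

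Some values changed sign, all of them uncalled apart from Pbrm1 and Snx30. Wdr5 was at 0.0742 with library totals. Rbbp5 was at -0.032 with the length offset, -0.0418 with Xist covariate and length offset, -0.227 without centring and -0.0615 without wild type 3. Kmt2c was at -0.0528 with the block, -0.0808 without centring, and between -0.0464 and 0.113 when 1 library was left out. Without centring, Ash2l was at -0.0495, Pbrm1 at -0.0954 and Snx30 at -0.0753. The ratio of Kdm6b to Kdm6a differed by -0.0136 in libraries with high Xist, and that of Kmt2b to Kmt2a by -0.139 with the length offset. The cause of these changes was not tested. Wild type libraries were less deep and had fewer genes detected, and Xist was high in 2 of 5 knockout and 3 of 4 wild type libraries.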
